A study of Homo sapiens with 4 samples.

Results

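GCLC, the catalytic subunit of the enzyme that makes the first peptide bond of glutathione, was examined together with 8 other genes of the NRF2 antioxidant response in HSCC and oral cancer cells into which miR-489 or miR-504 had been transfected. The genes were GCLC, GCLM, NQO1, HMOX1, TXNRD1, SLC7A11, AKR1C1, ME1 and NFE2L2. Every non-control spot whose gene name in the array design was one of these symbols was taken, which gave 17 probes of 9 genes, of 41000 probes and 30982 gene names in all. The symbols were taken by name, with earlier results of these data known, and GCLC was included because the study had listed it among genes lowered by miR-489 in FaDu cells. Its brighter probe on the FaDu miR-489 array is therefore a description of what chose it, and the other 3 arrays did not enter that choice.

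FaDu is a cell line from a squamous cell carcinoma of the hypopharynx, and HSC3 is a line from a squamous cell carcinoma of the tongue. Each line was transiently transfected with miR-489, miR-504 or a control miRNA, and RNA was taken after 72 h. On each of 4 arrays, RNA of the miRNA transfectant carried the dye Cy5 and RNA of the control transfectant of the same line carried Cy3, with 1 array per line and miRNA. No biological replicate of a condition was available, dyes were not swapped, and the labels do not say whether the 2 arrays of a line held separate control cultures, so p-values below measure only the spread between these arrays, which may be technical. The precision of each value is limited by the number of arrays.

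All 6 squamous epithelial marker genes found on the array (KRT5, KRT14, KRT17, TP63, CDH1 and EPCAM) gave Cy3 signals well above background on all 4 arrays. Markers of leukocytes, endothelium and muscle (PTPRC, CD3E, PECAM1, CDH5 and DES) were not well above background on any array. COL1A1, a fibroblast collagen, was well above background only on the HSC3 arrays, at log2 Cy3 signals of 5.48 and 5.12. Of the 43376 spots of an array, 58.1 to 59.2% were well above background in Cy3 and 61.2 to 62.5% in Cy5. Over 20914 probes well above background in Cy3 on all 4 arrays, Cy3 signals correlated at 0.994 between the FaDu arrays, at 0.990 between the HSC3 arrays and at 0.924 to 0.928 between lines, as a description of arrays that share probes.

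NRF2, encoded by NFE2L2, is a transcription factor that KEAP1 holds at low levels in unstressed cells by directing it to degradation. Oxidants and electrophiles release it, and with a small MAF protein it binds antioxidant response elements of genes for glutathione synthesis, thioredoxin reduction, quinone and carbonyl reduction, haem breakdown and NADPH supply. Squamous carcinomas of the head and neck can carry alterations of NFE2L2, KEAP1 or CUL3 that keep this programme switched on.

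The transfected miRNAs are shown because each array compares their effect, and an animal miRNA recognises its targets mainly by its seed. The mature sequences below are those of RefSeq on GRCh38.p14, with the seed (bases 2 to 8) in capitals. The labels do not name the arm that was transfected.
hsa-miR-489-3p: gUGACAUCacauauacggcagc
hsa-miR-504-5p: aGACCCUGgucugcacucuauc
hsa-miR-504-3p: gGGAGUGCagggcaggguuuc
The miR-489-3p sequence lies on chromosome 7 at 93483947 to 93483968 on the minus strand, and miR-504-5p lies on chromosome X at 138667760 to 138667781 on the minus strand. The 3 seeds differ, so none is shared between the miRNAs. Target sites of the 9 genes were not analysed here. The study, which searched the TargetScan database, listed no miR-489 target site for GCLC.

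The core of the antioxidant response element, searched as TGACNNNGC on both strands, is shown for the genes whose RefSeq promoter window held it. A window ran from 250 bases before to 50 bases after a gene's start. Windows of 7 of the 9 genes were in the table, and HMOX1 and SLC7A11 were not matched. The core was found for 3 genes, GCLM, ME1 and TXNRD1, of 7 that had 9 windows in all. It was found in 13.35% of all 35116 windows of the same length. The first is a count of genes and the second a share of windows, so they are not directly comparable. For each gene the match that lies farthest before the start is printed with the core in capitals, read 5′ to 3′ on the strand that carries the core.
GCLM: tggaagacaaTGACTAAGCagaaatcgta
ME1: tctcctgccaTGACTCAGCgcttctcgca
TXNRD1: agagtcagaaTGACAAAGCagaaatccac
These lie at chr1:93909446-93909474 on the strand opposite to GCLM, at chr6:83431170-83431198 on the strand of ME1, and at chr12:104286920-104286948 on the strand opposite to TXNRD1 (GRCh38.p14). A match of these letters describes a sequence and was not tested as a bound site.

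The first question was how each gene moved in the transfectants against the control. Values are log2 ratios of background-subtracted median intensity, Cy5 over Cy3, relative to the median probe of the same array. Before that centring the median log2 ratio was 0.58 for FaDu with miR-489, 0.65 for FaDu with miR-504, 0.58 for HSC3 with miR-489 and 0.44 for HSC3 with miR-504, and array values are given in that order throughout. With 1 array per condition a single ratio has no replicate error. The median SD between spots of one probe, over 195 to 209 probes with at least 5 spots, was 0.052 to 0.059, which covers error within an array only.

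The 2 probes of GCLC disagreed in direction. The brighter probe, A_23_P145114 on chromosome 6, gave log2 ratios of -2.09, -0.94, -1.46 and -1.11. All 4 arrays were below the array median, and the FaDu miR-489 array, on which the study had picked the gene, was the lowest. The other probe, A_23_P352879, lies 1244 bases nearer to the 5′ end of the gene by the coordinates of the array design, whose genome build the sources used here do not name, and gave 0.17, 0.65, 0.72 and 0.30. The gap between the probes, brighter minus other, was -2.27, -1.59, -2.17 and -1.41, wider on both miR-489 arrays than on both miR-504 arrays. Such a gap shows unequal change of the probes and leaves unsettled which of them follows the whole GCLC transcript. The FaDu miR-489 gap includes the value for which the gene was chosen, so only the HSC3 arrays compare the gap between the miRNAs free of that choice.

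GCLM, the modifier subunit that joins GCLC in the same enzyme, gave log2 ratios of 0.31, 0.38, 0.22 and 0.38. They lay within a narrow range, above the array median in every transfectant. The fall at the brighter GCLC probe had no counterpart in GCLM on any array.

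SLC7A11, the cystine transporter of system xc-, which brings in the amino acid that limits glutathione synthesis, was measured by 3 probes. The brightest, A_32_P165477 on chromosome 4, gave log2 ratios of -1.28, 0.03, -1.14 and -0.00. Both miR-489 arrays were low and both miR-504 arrays lay at the array median. A_32_P42684, which lies 2277 bases towards the 3′ end, gave -0.36, 0.82, -0.16 and 0.51. The gap between the miRNAs ran the same way in both lines at that probe, but around a higher level. The dimmest, A_24_P200420, 3273 bases towards the 5′ end, gave -1.55 and 0.10 in FaDu and -0.42 after miR-504 in HSC3, and was not well above background in Cy3 on the HSC3 miR-489 array.

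AKR1C1, an aldo-keto reductase that reduces ketosteroids and lipid aldehydes, had 4 probes on chromosome 10. AKR1C1 has near-identical relatives in the AKR1C cluster, so a probe may also bind their RNA, and the values are uncertain to that extent. A_23_P257971 gave -0.55, 0.57, -0.02 and 0.55, and A_24_P220947 gave -0.58, 0.71, 0.11 and 0.73. At both of these bright probes FaDu miR-489 was the lowest array and the miR-504 arrays of both lines were the highest. A_24_P152968, 14274 bases towards the 5′ end on the design's coordinates, gave -1.24, -0.10, -0.48 and -0.07. A_24_P312578, 24873 bases towards the 5′ end, was not well above background in Cy3 on the FaDu arrays and gave -0.59 and -0.68 in HSC3.

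NQO1, the quinone reductase often used as a readout of NRF2, gave log2 ratios of 0.29, 0.40, 0.55 and 0.21, above the array median on all 4 arrays. TXNRD1, which reduces thioredoxin with NADPH, gave -0.10, 0.37, 0.02 and 0.34, so both miR-504 arrays lay above both miR-489 arrays. HMOX1, which opens the haem ring, was spotted many times on the array (9 or 10 usable spots) and gave -0.48, -0.24, 0.27 and -0.12, with SDs between its spots of 0.043 to 0.075. The HMOX1 ratios lay on both sides of the array median.

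ME1, malic enzyme, which makes NADPH in the cytosol, gave 0.22, 0.18, 0.19 and 0.18 at its brighter probe A_23_P422026, the narrowest range of any of the 17 probes. Its dimmer probe A_24_P342377 gave -0.16, -0.39, -0.55 and -0.15, below the array median on every array, so the ME1 probes also disagreed in sign. NFE2L2, the gene of NRF2 itself, gave -0.16, 0.32, 0.15 and -0.20 at A_23_P5761. Its dim probe A_24_P936444, which lies 34141 bases towards the 5′ end, gave -0.51, -0.07, -0.20 and -0.52.

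**Figure D1:**
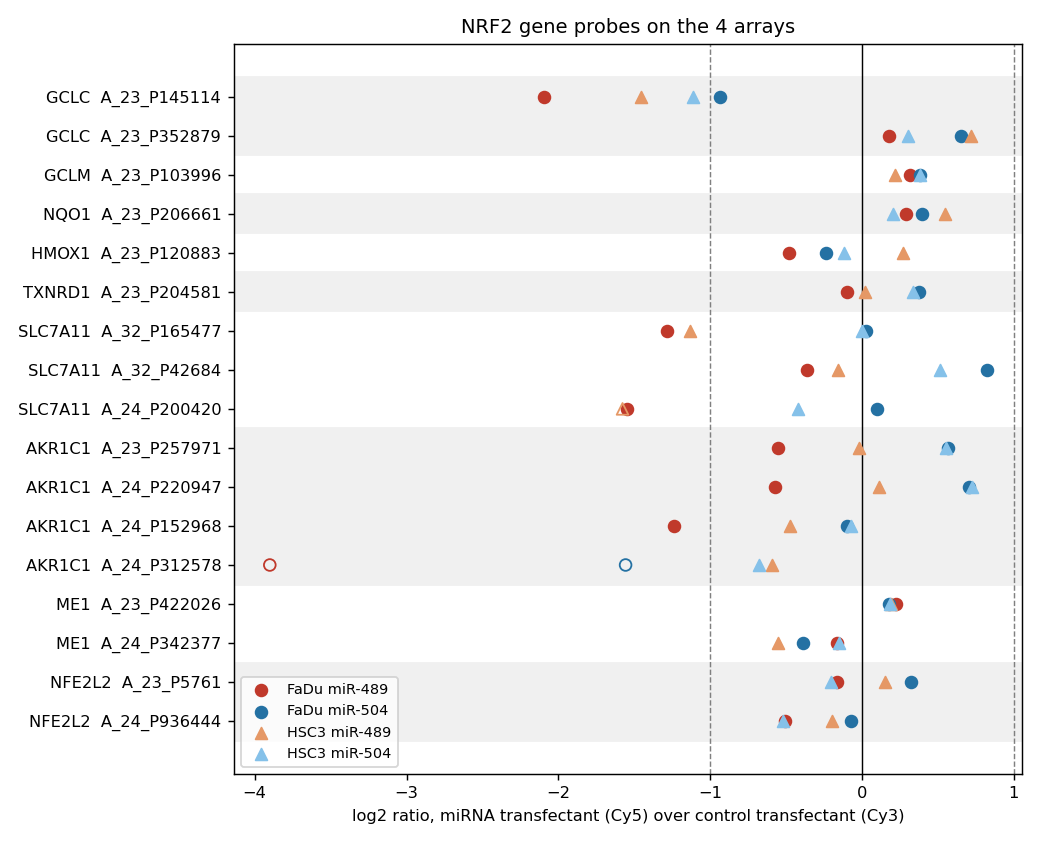
Log2 ratio of the miRNA transfectant (Cy5) over the control transfectant (Cy3) for each of the 17 probes, with 1 point per array and no error bars since each condition had 1 array; circles are FaDu, triangles HSC3, open symbols mark probes not well above background in at least 1 channel, and dashed lines mark a 2-fold change. The brighter GCLC probe lies between -2.09 and -0.94, the other GCLC probe between 0.17 and 0.72, and SLC7A11 is low on the miR-489 arrays.

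Probes at least 2-fold lower than the control were counted where Cy3 was well above background. On the FaDu miR-489 array 4 of 16 probes of the 9 genes were, against 7.95% of all probes. The 4 were the brighter GCLC probe, 2 SLC7A11 probes (A_32_P165477 and A_24_P200420) and AKR1C1 A_24_P152968. Without the brighter GCLC probe, which was chosen for its value on this array, 3 of 15 were. On the FaDu miR-504 array 0 of 16 were, against 5.44% of all probes. On the HSC3 miR-489 array 2 of 16 were (brighter GCLC and SLC7A11 A_32_P165477), against 7.44%, and on the HSC3 miR-504 array 1 of 17 was (brighter GCLC), against 4.55%. At least 2-fold higher were 0 of the 9 genes' probes on each array, against 2.95, 2.35, 2.82 and 1.95% of all probes. When the probes of a gene were averaged, the numbers of genes at least 2-fold lower were 1, 0, 0 and 0 of 9, against 6.34, 4.33, 6.17 and 3.8% of all genes, and the 1 gene was SLC7A11.

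The second question was whether miR-489 and miR-504 acted differently on these genes, which sets arrays of the same dye layout against each other so that what is common to Cy5 against Cy3 on all arrays cancels. With the lines as replicates (2 against 2 arrays), limma with Benjamini-Hochberg adjustment called 158 of 20914 probes lower after miR-489 (0.755%) and 64 higher (0.306%). Of the 9 genes, 15 probes could be tested, 1 was lower and 0 were higher. With the cell line as a block, which pairs the arrays of a line, the count over all probes was 376 in place of 222, and that over the 9 genes stayed at 1.

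The probe that fell was SLC7A11 A_32_P165477. Its log2 ratio after miR-489 was lower than after miR-504 by 1.31 in FaDu and by 1.13 in HSC3. The limma difference was -1.22 ± 0.12 (SE, 2 lines), or 2.34-fold lower, with an adjusted p of 0.034. The call did not hold when any 1 of the 4 arrays was left out, when 0 probes of any gene were called (2051 to 3698 at an unadjusted p under 0.05), and the difference then ranged from -1.30 to -1.15 with adjusted p of 0.082 to 0.27. With loess normalisation it was -1.02 with an adjusted p of 0.075.
The second SLC7A11 probe, A_32_P42684, differed by -1.18 in FaDu and -0.67 in HSC3, with a limma difference of -0.92 ± 0.16 and an adjusted p of 0.075, which missed the threshold. Both channels entered these differences. At A_32_P165477 the scaled log2 Cy5 signal was lower after miR-489 by 1.63 in FaDu and by 2.34 in HSC3, while the Cy3 control signal of HSC3 was itself 1.16 higher on the miR-504 array than on the miR-489 array. Over all probes the median absolute difference between the control channels of a line was 0.15 in FaDu and 0.19 in HSC3, so the HSC3 controls of SLC7A11 stood farther apart than most.

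AKR1C1 had differences close in size to the second SLC7A11 probe, none past the threshold. The differences in FaDu and HSC3 were -1.12 and -0.57 at A_23_P257971, -1.28 and -0.61 at A_24_P220947 and -1.14 and -0.40 at A_24_P152968. All 3 tested probes were lower after miR-489 in both lines, with limma differences of -0.85 ± 0.20, -0.95 ± 0.24 and -0.77 ± 0.26 and adjusted p of 0.12, 0.14 and 0.22.

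The brighter GCLC probe was lower after miR-489 than after miR-504 by 1.16 in FaDu and by 0.35 in HSC3, a limma difference of -0.75 ± 0.23 with an adjusted p of 0.19, which includes the array on which the gene was chosen. The other GCLC probe differed by -0.48 in FaDu and 0.41 in HSC3, which gave -0.03 ± 0.23 with an adjusted p of 0.96. TXNRD1 was lower by 0.47 and 0.32, with -0.39 ± 0.11 and an adjusted p of 0.18.

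GCLM differed by -0.12 ± 0.11, NQO1 by 0.12 ± 0.15, HMOX1 by 0.07 ± 0.26 and the brighter ME1 probe by 0.03 ± 0.11, with adjusted p of 0.64, 0.74, 0.92 and 0.93. None of these 4 genes differed between the miRNAs beyond the spread of the arrays. Of the 15 tested probes, 8 were lower after miR-489 in both lines, 1 was higher in both and 6 went opposite ways, and the median difference was -0.12. Over all tested probes 29.1% were lower in both lines and the median difference was 0.02. The 8 include the brighter GCLC probe, whose value in FaDu after miR-489 chose the gene. They also include several probes each of SLC7A11 and AKR1C1, which are not separate genes. Shares of all probes higher in both lines or opposite were not computed, and the counts were not tested.

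**Figure D2:**
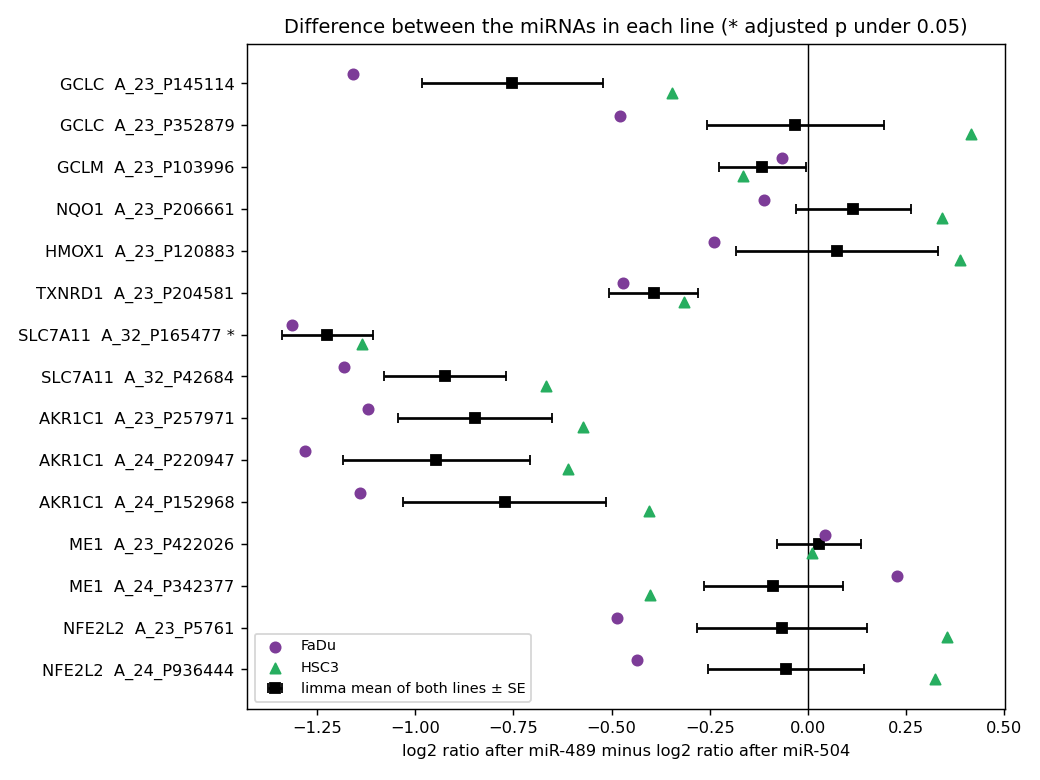
Difference of log2 ratios, miR-489 minus miR-504, for the 15 tested probes in FaDu (circles) and HSC3 (triangles), with the limma mean of both lines and its SE (squares with bars). SLC7A11 A_32_P165477, marked by an asterisk, lies at -1.31 and -1.13, and the 3 AKR1C1 probes lie at or below -0.40 in both lines.

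Against the control, averaged over the lines, a large share of the array was called. There was no dye swap, so a dye effect of a probe and the effect of transfection cannot be told apart here. After miR-489, limma called 57.2% of 20914 probes, 26.3% lower and 30.9% higher. Of the 15 probes of the 9 genes, 3 were lower and 2 higher. The lower ones were the brighter GCLC probe at -1.78 ± 0.16 (adjusted p = 0.0013), SLC7A11 A_32_P165477 at -1.21 ± 0.08 (0.00089) and AKR1C1 A_24_P152968 at -0.86 ± 0.18 (0.013), and each stayed called whichever array was left out. The GCLC value includes the FaDu array on which the gene was chosen, so its p is no independent evidence. Without that array the HSC3 array alone gave -1.46, with an adjusted p of 0.0090 that takes its spread from the other arrays. The higher ones were GCLM at 0.27 ± 0.08 (0.034) and NQO1 at 0.42 ± 0.10 (0.020). GCLM lost its call without any 1 of the arrays, and NQO1 without the HSC3 miR-489 array (adjusted p = 0.13). Loess normalisation ended both calls, and the deposited ratios ended that of GCLM.

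After miR-504, limma called 49.8% of probes, 23.1% lower and 26.7% higher, and of the 9 genes' 15 probes 1 was lower and 5 were higher. The lower one was again the brighter GCLC probe, at -1.02 ± 0.16 with an adjusted p of 0.0064. The higher ones were GCLM at 0.38 ± 0.08, TXNRD1 at 0.36 ± 0.08, SLC7A11 A_32_P42684 at 0.67 ± 0.11 and AKR1C1 A_23_P257971 and A_24_P220947 at 0.56 ± 0.14 and 0.72 ± 0.17, with adjusted p of 0.013, 0.017, 0.0071, 0.024 and 0.020. Without the FaDu miR-504 array 0 of these 6 were called, with an adjusted p of 0.055 for GCLC. Without the HSC3 miR-504 array 1 was called, SLC7A11, with an adjusted p of 0.069 for GCLC. These contrasts share the arrays' control channels with the difference between the miRNAs and are no second observation of it.

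Whether the ratio against the control differed between the lines was tested over both miRNAs. Limma called 0 of 20914 probes (664 at an unadjusted p under 0.05), and 0 of the 15 probes of the 9 genes reached even an unadjusted p under 0.05. In simulated data this fit recovered 0 of 100 probes changed by 1 on the log2 scale and 71 of 100 changed by 2. The absence of calls therefore cannot show that the lines responded alike. The difference FaDu minus HSC3 was -0.23 at the brighter GCLC probe and -0.43 at HMOX1. With the miRNA as a block 0 probes were called as well, with 1541 at an unadjusted p under 0.05.

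The third question was how the levels of the 9 genes differed between the lines in the control transfectants. Levels are log2 Cy3 signals of the control transfectants, scaled between arrays, and can be compared between arrays for one probe but not between probes. Fewer molecules per cell and another share of cells that hold them cannot be told apart in such bulk RNA. Of 24119 probes tested by limma, 47.9% differed, 27% being higher in FaDu and 20.9% lower. Of the 17 probes of the 9 genes, 10 in 7 genes were higher in FaDu and 2 were lower. A pair of these, SLC7A11 A_24_P200420 and AKR1C1 A_24_P312578, were not well above background on every array of one line. They passed the filter through the line in which they were high, so the filter favoured that direction and their calls are no independent evidence. Of the 15 probes well above background on all arrays, 9 were higher in FaDu and 1 was lower. The median difference FaDu minus HSC3 was 0.70 over these 15 and 0.08 over all probes tested. Both FaDu levels lay above both HSC3 levels at 12 of the 17 probes, below them at 3, and the lines overlapped at 2, with the dim pair included. The share of all probes without overlap was not computed, so these counts only describe the 17 probes.

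NQO1 gave levels of 9.84 and 9.82 in FaDu and of 7.89 and 8.53 in HSC3. FaDu was higher by 1.62 ± 0.23, or 3.07-fold, with an adjusted p of 0.0035 in limma. GCLM gave 11.00 and 10.73 in FaDu and 9.47 and 9.09 in HSC3, a difference of 1.58 ± 0.20 (2.99-fold, adjusted p = 0.0022). The lines were separated at both genes by more than the arrays of a line differed.

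SLC7A11 A_32_P165477 gave 8.52 and 8.86 in FaDu and 6.37 and 7.53 in HSC3, a difference of 1.74 ± 0.38 (3.35-fold, adjusted p = 0.014). The HSC3 pair was spread by more than 1 on the log2 scale, and every FaDu level was still above every HSC3 level. A_32_P42684 was higher in FaDu by 1.19 ± 0.31 (adjusted p = 0.023). The dimmest probe, A_24_P200420, gave 6.21 and 5.92 in FaDu and 5.19 on the HSC3 miR-504 array, and was not well above background on the other HSC3 array. The call at A_32_P165477 was lost without the FaDu miR-504 array (1.57, adjusted p = 0.061), as was that at A_32_P42684 (0.99, 0.11).

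ME1 gave 10.66 and 10.40 in FaDu and 9.58 and 9.32 in HSC3 at its brighter probe, a difference of 1.08 ± 0.18 (adjusted p = 0.0054), and its dimmer probe was higher in FaDu by 0.98 ± 0.27, a call lost without the FaDu miR-489, FaDu miR-504 or HSC3 miR-504 array (0.90, 1.06 and 0.60, adjusted p of 0.12, 0.079 and 0.051). TXNRD1 gave 9.81 and 10.09 in FaDu and 9.19 and 9.47 in HSC3, a difference of 0.62 ± 0.18 (adjusted p = 0.037). The TXNRD1 call was lost without the FaDu miR-489 array (0.76, adjusted p = 0.069), the FaDu miR-504 array (0.48, 0.19) or the HSC3 miR-489 array (0.48, 0.11).

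NFE2L2 differed in opposite directions at its probes. A_23_P5761 gave 11.78 and 11.54 in FaDu and 10.84 and 11.21 in HSC3, higher in FaDu by 0.63 ± 0.19 (adjusted p = 0.040). The dim probe A_24_P936444 gave 5.39 and 5.62 against 6.18 and 5.997, with a difference of -0.58 ± 0.17 (adjusted p = 0.033). Each of these calls was lost without the FaDu miR-489, FaDu miR-504 or HSC3 miR-489 array, with adjusted p of 0.076 to 0.19 over those fits.

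GCLC also split by probe. The brighter probe gave 10.69 and 10.35 in FaDu and 10.03 and 10.76 in HSC3, overlapping levels with a difference of 0.13 ± 0.28 (adjusted p = 0.72). The other probe gave 9.15 and 8.83 in FaDu against 7.82 and 8.30 in HSC3, higher in FaDu by 0.93 ± 0.22 (1.90-fold, adjusted p = 0.018), a call lost without the FaDu miR-489 array (0.76, adjusted p = 0.099).

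HMOX1 gave 10.49 and 9.51 in FaDu and 9.26 and 9.34 in HSC3, with a difference of 0.70 ± 0.32 that missed the threshold (adjusted p = 0.13). Its FaDu control channels differed from each other by 0.99, the widest gap of the 9 genes in that line. The bright AKR1C1 probes differed by 0.41 ± 0.21 and 0.10 ± 0.20, with adjusted p of 0.15 and 0.72, and A_24_P152968 by -0.45 ± 0.15 (0.051). A_24_P312578 was not well above background in FaDu. There HSC3 was 1.78-fold higher, taking as the floor on each array the probe's own FaDu signal or, if higher, the lowest signal that counted as well above background. With normexp background correction the difference FaDu minus HSC3 was -0.22. The fold therefore depends on the floor and the background correction. It has no test here, since the probe was measured only in the line where it was high.

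GCLM, NQO1 and the brighter ME1 probe were the probes higher in FaDu whose calls stayed under each left-out array and under each other processing of the Cy3 signal. When the Cy5 signals of the miRNA transfectants were compared in place of the control signals, 6 of the 17 probes were higher in FaDu and 0 were lower, against 18.7% and 14.4% of all probes, and the calls of TXNRD1 and of all 3 SLC7A11 probes were among those lost.

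**Figure D3:**
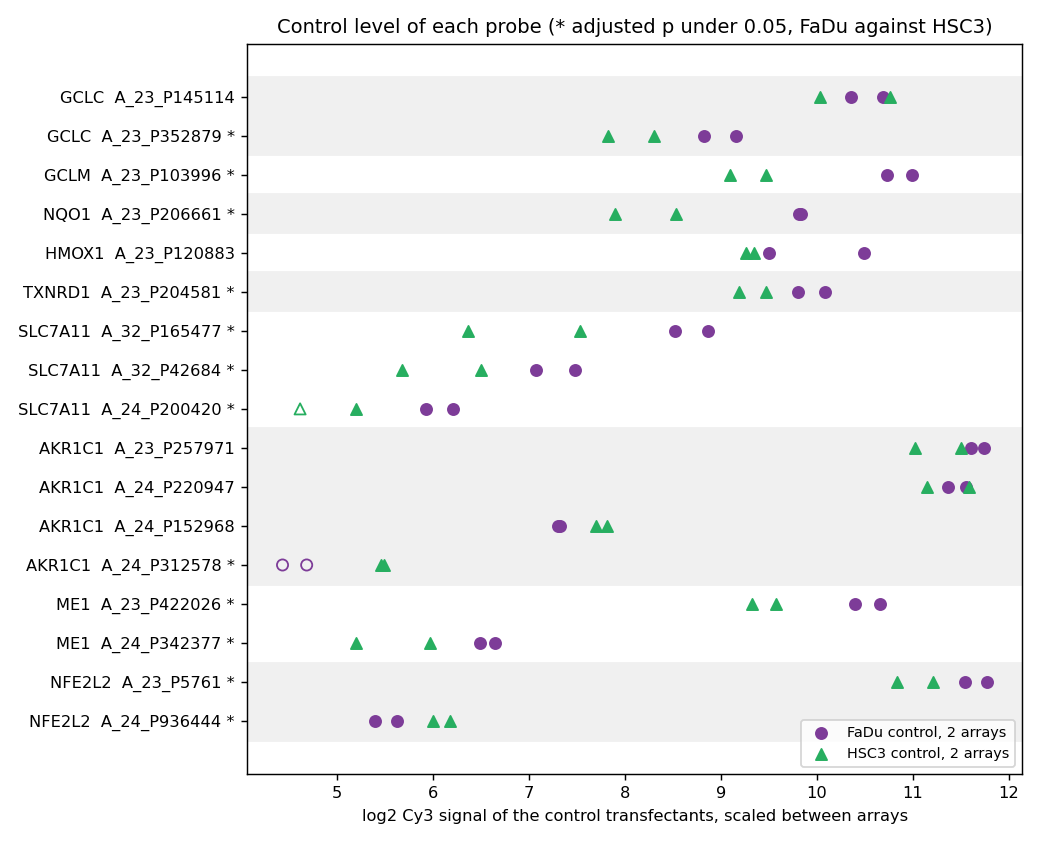
Log2 Cy3 signal of the control transfectants for each of the 17 probes, with 2 array values for FaDu (circles) and 2 for HSC3 (triangles), open symbols for arrays on which the probe was not well above background, and asterisks for an adjusted p under 0.05. GCLM, NQO1, SLC7A11 and ME1 are higher in FaDu, and the lines overlap at the brighter GCLC probe.

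Other genes of NRF2 signalling were taken from a list of 46, of which 45 were on the array under a matching symbol (AKR1C2 was the exception), each by its brightest probe. Between miR-489 and miR-504, 0 of the 38 that could be tested differed in limma at the adjusted threshold, against 1.06% of all probes. AKR1C3 and AKR1B10, further aldo-keto reductases singled out after their values were seen, differed by -0.80 and -0.72 with adjusted p of 0.25 and 0.23. AKR1B1, another aldo-keto reductase of the list, went the other way, at 0.11 with an adjusted p of 0.72. The largest difference of the list was that of TXNIP, which is not one of these reductases, at -0.87 with an adjusted p of 0.086. Against the control, 8 of 38 were lower and 14 higher after miR-489, beside 26.3% and 30.9% of all probes, and 6 were lower and 13 higher after miR-504, beside 23.1% and 26.7%. On the single arrays 4 of 44, 1 of 42, 2 of 41 and 0 of 40 were at least 2-fold lower, close to or below the shares of all probes given above.

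Between the lines, 20 of 43 tested were higher in FaDu and 10 lower, beside 27% and 20.9% of all probes. Of these, 5 genes (MGST1, GSTM3, ALDH3A1, EPHX1 and GGT1) were not well above background on every array of one line and passed the filter through the other. Over the 38 genes well above background on all arrays, 16 were higher and 9 lower, with a median difference of 0.29.
Of the 43, 5 glutathione genes were higher and 1 was lower of 8, 4 quinone and carbonyl genes were higher and 2 lower of 8, and 4 NADPH genes were higher and 0 lower of 5. Of the regulators 2 were higher and 1 lower of 8, of the thioredoxin genes 1 was higher and 2 lower of 4, and of the haem and iron genes 1 was higher and 2 lower of 4. Of the export genes 1 was higher and 1 lower of 3, and of the remaining genes 2 were higher and 1 lower of 3. These group counts were not tested against all probes. The glutathione counts include MGST1, GSTM3 and GGT1, and the quinone and carbonyl counts include ALDH3A1 and EPHX1. These genes passed the filter through the line in which they were high, so the counts of both groups are no evidence of a higher level in FaDu.
MGST1, a membrane glutathione transferase, had levels of 13.09 and 13.35 in FaDu and was not well above background in HSC3. With the floor used for AKR1C1 A_24_P312578, it was 453-fold higher in FaDu. That fold depends on the floor, and with normexp background correction the log2 difference was 7.41. GPX2, an epithelial glutathione peroxidase, gave 12.05 and 11.99 in FaDu and 7.13 and 6.61 in HSC3, a difference of 5.15 ± 0.21. ALDH3A1, an aldehyde dehydrogenase, was 24.1-fold higher in FaDu with the floor used for MGST1, as its HSC3 signals were not well above background. The fold of ALDH3A1 also depends on the floor, and with normexp background correction its difference was smaller.
PIR, an iron-binding nuclear protein, was higher in FaDu by 2.87 ± 0.25. EPHX1, the microsomal epoxide hydrolase, gave 8.29 and 8.09 in FaDu and 5.74 on the HSC3 miR-489 array, and was not well above background on the other HSC3 array. BACH1, a repressor that competes with NRF2 at its elements, was lower in FaDu by 2.28 ± 0.20. These 6 had the largest fitted differences of the list among genes past the threshold, and for MGST1, ALDH3A1 and EPHX1 that rank rests on HSC3 signals not well above background on at least 1 array. The adjusted p was 0.00014 for GPX2, 0.00082 for PIR and 0.00081 for BACH1.

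**Figure D4:**
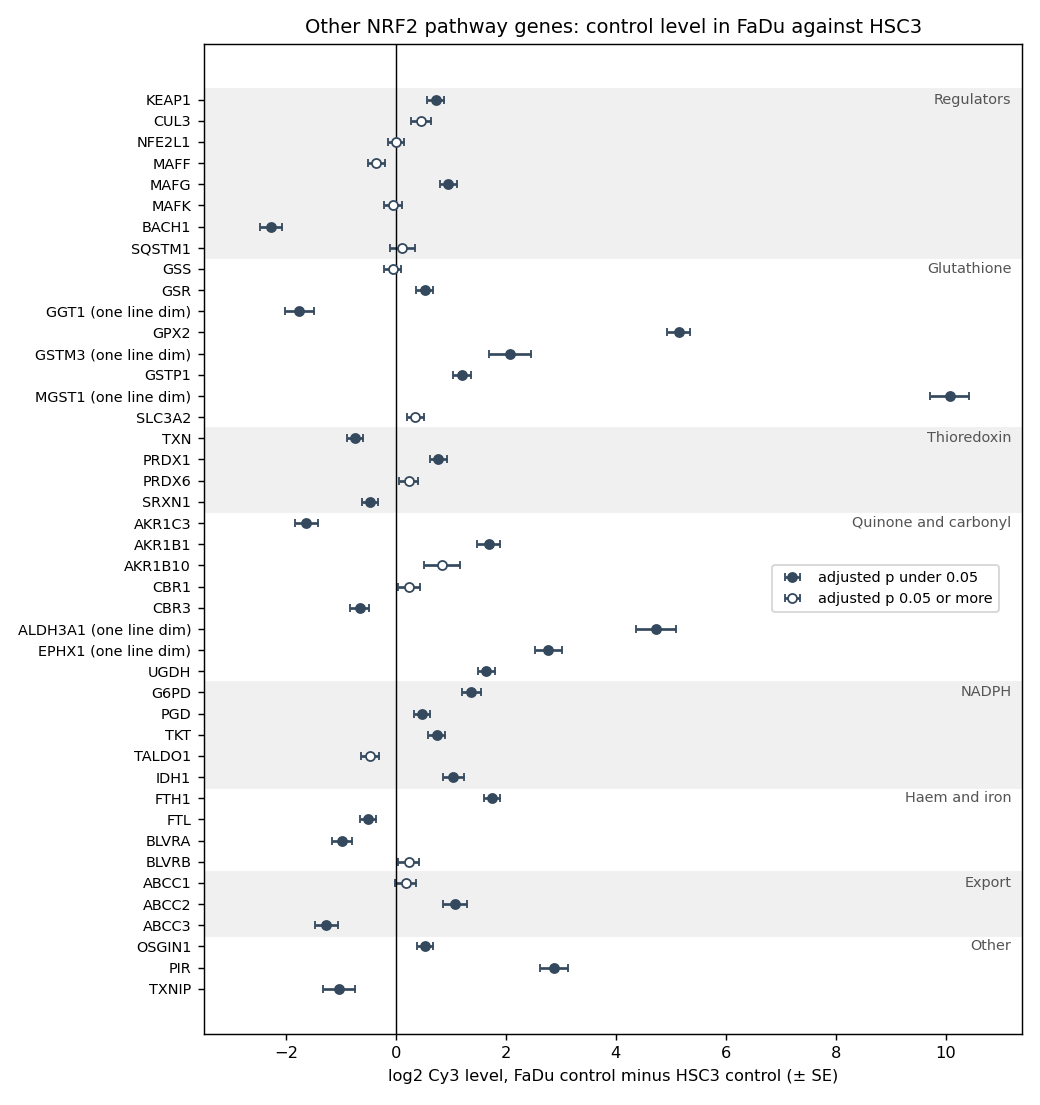
Difference of log2 Cy3 level, FaDu control minus HSC3 control, for the 43 tested genes of the wider NRF2 list (points, limma value; bars, SE; filled where the adjusted p was under 0.05), grouped by function. A gene marked as dim in one line was not well above background on at least 1 array of it, so its plotted value is no measured fold; MGST1, GPX2, ALDH3A1, PIR and EPHX1 lie farthest to the right and BACH1 farthest to the left.

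The genes whose 4 log2 ratios lay nearest to those of the brighter GCLC probe were found among 15618 genes measured above background in Cy3 and Cy5 on every array, by the root mean square difference over the 4 arrays. They were THC2436337 (0.13) and AK021751 (0.16), both unnamed transcripts, NUPL1 (0.15), a nucleoporin, XK (0.18), a membrane transport protein, and GJA1 (0.19), the gap junction protein connexin 43. None of the 8 other genes was among these 5, but 5 places among 15618 genes leave little room for any of them, so this is no result about the 8. The distance includes the FaDu miR-489 value for which GCLC was chosen. The study also listed NUPL1 among genes lowered by miR-489 in FaDu cells. GJA1, for example, gave -1.87, -0.74, -1.50 and -0.88.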

How the data were processed

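RNA of miRNA transfectants (Cy5) and control transfectants (Cy3) had been hybridised to 4 two-colour Agilent arrays (design 014850) on 1 slide in 1 scan. The authors deposited Feature Extraction 9.5.3.1 output with median spot and background intensity values, not normalised, and a log10 ratio per spot that the software had dye-normalised. The deposited table of processed values equalled those log10 ratios (largest difference 0). Per the file headers, other columns mark outliers, saturation and whether a signal stands well above background, and these were the filters. The study's methods name another scanner and program, the median background-subtracted log2 ratio and a global normalisation.

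Outlier spots (118 to 137 per array) were left out, and 0 spots were saturated. Log2 ratios were centred on the median of probes well above background in both channels, and spots of a probe were averaged. Cy3 signals were scaled to a common median, with a floor of 1 before log2. Limma 3.58.1 in R 4.3.3 (lmFit, eBayes, 2 residual degrees of freedom) was fitted to all probes well above background in Cy3 on all arrays (for levels, on both arrays of at least 1 line), with Benjamini-Hochberg adjustment and a threshold of 0.05. A probe was counted lower only where Cy3, and higher only where Cy5, was well above background. Coordinates of the array design were used only for distances between probes.

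The main fits had no block. Arrays of a line share the cell line, so the fit with line as block pairs them. Over 20914 probes the deviations of the arrays of a line from the miRNA means correlated at 0.14. The members and lists were chosen with earlier results of these data known. Every probe of the 9 genes is named, and from the wider list the genes past the test between the miRNAs and the 6 with the largest called difference in level, then the 5 genes nearest to GCLC by ratio. None of the wider list passed the test between the miRNAs, and AKR1C3, AKR1B10, AKR1B1 and TXNIP were named after their values were seen. Simulated data of 20914 probes had 200 changed probes. There the fit between the miRNAs recovered 35 of 100 probes changed by 1 on the log2 scale and 92 of 100 changed by 2, and that of levels 4 and 84. The fit of the ratio between lines recovered 0 and 71. In the real level data 47.9% of probes were called, so the adjustment was stricter in the simulation. The simulated recovery of levels therefore does not carry over to the data. Alternatives were normexp, loess, the deposited ratios, other filters, blocks, channels and scalings, and each array left out.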

Additional observations from a re-analysis of the deposited data

Results flagged for a closer look

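Some probes moved in opposite directions in the lines. None of these differences between lines was tested on its own, since each line had 1 array per miRNA.

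For miR-489 against the control, HMOX1 was at -0.48 in FaDu and 0.27 in HSC3, a gap of -0.75 on the log2 scale. AKR1C1 A_24_P220947 was at -0.58 and 0.11, a gap of -0.69. NFE2L2 A_23_P5761 was at -0.16 and 0.15, a gap of -0.31, and for miR-504 against the control it was at 0.32 and -0.20, a gap of 0.53.

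For miR-489 minus miR-504, the gap FaDu minus HSC3 was -0.89 at GCLC A_23_P352879, -0.45 at NQO1, -0.63 at HMOX1, -0.84 at NFE2L2 A_23_P5761 and -0.76 at NFE2L2 A_24_P936444, with FaDu below 0 and HSC3 above it. It was 0.63 at ME1 A_24_P342377, with FaDu above 0. The Cy3 control signals that enter these differences were themselves apart between arrays of a line by up to 0.99 (HMOX1, FaDu), and their part in the gaps was not tested.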

How the results depend on the processing

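The arrays are few and unreplicated, and folds of dim probes depend on the floor and the background correction. With the cell line as a block the probes called between the miRNAs numbered 376, with normexp 672, with loess 347 and with the deposited ratios 390, against 222, and the lower probes of the 9 genes numbered 2 with normexp and 0 with loess, against 1. The line block changed no call of the 9 genes between the miRNAs, and the miRNA block none between the lines; calls against the control were not fitted with a block. On single arrays, probes of the 9 genes at least 2-fold lower numbered 2 with normexp and 1 as gene means against 4 (FaDu miR-489), 1 with loess and 1 without a filter against 0 (FaDu miR-504), 1 with normexp, loess or the deposited ratios and 0 as gene means against 2 (HSC3 miR-489), and 0 as gene means against 1 (HSC3 miR-504). The counts over all probes moved too. On the FaDu miR-489 array 569 of 23559 were lower with normexp, against 1873 of 23557. On the FaDu miR-504 array 11570 of 38480 were lower without a filter and 913 of 23418 with loess, against 1273 of 23418. The changes with normexp on the first array and without a filter on the second are therefore not particular to the 9 genes. Higher probes after miR-489 against the control numbered 4 with normexp, 0 with loess and 1 with the deposited ratios against 2, and after miR-504 8 with normexp against 5. Of all 20914 probes, those higher after miR-489 numbered 7112 with normexp, 5733 with loess and 5935 with the deposited ratios, against 6459. After miR-504 they numbered 6284 with normexp against 5576. For levels, lower probes in FaDu numbered 0 with normexp or Cy5 against 2, and higher ones 6 with Cy5 against 10. Over all probes, 4850 of 24119 were lower with normexp against 5050. With Cy5, 3681 of 25594 were lower and 4775 higher.

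With each array left out in turn, calls between the miRNAs numbered 0 to 0 over all probes and over the 9 genes, and calls between lines in ratio 0 to 0. Against the control, calls ranged from 8599 to 10424 probes for miR-489 (9 genes, 3 to 6 lower and 0 to 2 higher) and from 3321 to 10979 for miR-504 (0 to 1 lower, 0 to 7 higher), and for levels from 7317 to 10972 (1 to 2 lower, 5 to 10 higher). The 6 lower after miR-489 came without the HSC3 miR-489 array. For levels, 5 higher were left without the FaDu miR-489 array and 6 without the FaDu miR-504 array.

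The sign turned for GCLC A_23_P352879 between the miRNAs without the FaDu miR-489 array (0.24) or the FaDu miR-504 array (0.14), and for the level of GCLC A_23_P145114 with Cy5 (-0.079), without the FaDu miR-489 array (-0.04) and without the HSC3 miR-489 array (-0.24). With each array left out these values ranged from -0.30 to 0.24 and from -0.24 to 0.49. None of these values passed the test, and the causes were not tested. A slide block was not run, since all arrays were on 1 slide.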
